A study of Homo sapiens with 8 samples.

Results

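The genes described here are COMP (cartilage oligomeric matrix protein, also known as thrombospondin 5), the thrombospondins THBS1 to THBS4 and the matrilins MATN1 to MATN4. They are 9 of the 60668 annotated genes counted by RNA-Seq in D283-OMO cells, and 5 of them exceeded 1 CPM (count scaled to the size of its library) in at least 4 of 8 libraries and were among the 15222 genes tested. The set was chosen by family name with the rise of COMP upon DOX treatment in these same libraries already known. The differences between groups are therefore given for the 9 genes as a description, with values per library and no p-value.

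D283 MED is an established human medulloblastoma line regarded as lying between Group 3 and Group 4 of the disease. D283-OMO cells are D283 MED cells carrying a lentiviral, doxycycline (DOX)-inducible transgene for FLAG-tagged OMOMYC, a dominant-negative mini-protein derived from MYC. Both groups carried the transgene: 4 libraries came from untreated cells and 4 from cells given DOX for 72 h, each described by the study as an independent biological replicate. Whether the line is 1 clone or a pool is not given in the sources used here. No DOX-treated library without the transgene was analysed here, so the effect of DOX itself and that of OMOMYC cannot be told apart.

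Thrombospondins are secreted, calcium-binding glycoproteins of the extracellular matrix. THBS1 and THBS2 assemble as trimers and carry the type 1 repeats through which they restrain blood vessel growth, whereas COMP, THBS3 and THBS4 assemble as pentamers and lack those repeats. COMP binds fibrillar collagens and collagen IX in cartilage and tendon, and mutations in it cause pseudoachondroplasia. Matrilins are adaptor proteins built of von Willebrand A domains and EGF-like repeats that connect collagen fibrils, proteoglycans and COMP. MATN1 and MATN3 are typical of cartilage, whereas MATN2 and MATN4 are also made in many other tissues.

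Library depth ranged from 46592882 to 54020451 counts in untreated cells and from 38390649 to 49249120 in DOX-treated cells. Across genes, libraries correlated at 0.989 or more within the untreated group, at 0.994 or more within the DOX-treated group and at 0.882 or less between groups. At FDR < 0.001 and an absolute log2 fold change (log2FC) above 2, the thresholds in the methods of the study, 666 genes rose and 418 fell. These were 4.38% and 2.75% of the genes, or 7.12% in either direction. At FDR < 0.05 without a fold threshold, 38.5% of genes rose and 38.1% fell (76.6% in all), and for 71.7% the 4 untreated and the 4 DOX-treated values did not overlap. The median log2FC over all genes tested was 0.01. It became 0.14 when library size alone was used for scaling, a shift of 0.13 that applies to all values below.

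Among the 5 tested members, the genes counted under the stricter thresholds were 3: COMP was higher, and THBS1 and MATN2 were lower, with DOX. The rise of COMP chose the set and COMP exceeded the CPM minimum only through its DOX-treated libraries, so nothing is read from this count beside the 7.12% of all genes. The same 3 were counted at FDR < 0.05, and the same 3 had groups that did not overlap. THBS3 and MATN3 did not pass either threshold. THBS4, MATN1 and MATN4 lay below the CPM minimum and THBS2 had no count in any library.

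The promoters of COMP and THBS1 are shown because these genes had the highest levels of the family and moved in opposite directions. Each line holds the 250 bases before the RefSeq transcription start on GRCh38.p14, read on the strand of the gene, and capitals mark GC boxes, the 6-base Sp1-type element GGGCGG or its complement CCGCCC. The COMP stretch lies at chr19:18791306-18791555 on the minus strand and the THBS1 stretch at chr15:39580829-39581078 on the plus strand.
COMP: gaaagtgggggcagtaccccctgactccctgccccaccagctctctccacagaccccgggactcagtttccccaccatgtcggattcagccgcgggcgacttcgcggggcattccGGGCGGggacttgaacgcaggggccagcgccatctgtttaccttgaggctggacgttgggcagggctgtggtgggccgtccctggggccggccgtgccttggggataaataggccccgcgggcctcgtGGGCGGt
THBS1: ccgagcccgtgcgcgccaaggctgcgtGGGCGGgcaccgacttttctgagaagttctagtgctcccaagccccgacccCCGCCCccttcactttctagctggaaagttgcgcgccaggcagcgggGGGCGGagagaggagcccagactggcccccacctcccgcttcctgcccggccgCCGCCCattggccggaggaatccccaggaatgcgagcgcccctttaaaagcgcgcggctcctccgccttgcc

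Counted from the start, GC boxes began at -135 and -7 in COMP and at -223, -172, -125 and -72 in THBS1. A GC box was found on either strand in 45.0% of the 35116 RefSeq promoter windows of 300 bases (250 before and 50 after the start). The window of COMP was 68.7% and that of THBS1 70.0% G or C, against a median of 58.7%, and they held 23 and 29 CpG dinucleotides against a median of 14.

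Neither window contained the canonical MYC E-box CACGTG, which 7.26% of windows held, or its variant CACGCG, read on both strands, which 11.4% held. Among the other members with a window, THBS4 had a CACGTG beginning at -39 from its first start and MATN3 the variant at -14. TATAAA, the core of a TATA box, was found at -29 in THBS2 and in 11.5% of windows. TAATCC, the core bound by OTX2 and CRX, was found only in the window at the first THBS4 start among the members (its complement, 42 bases after the start) and in 6.36% of all windows. A match is a description of letters and not evidence of binding. Windows were present for 7 of the 9 genes, in 10 entries.

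Among the pentameric thrombospondins, COMP (ENSG00000105664.11, chr19:18782773-18791314 on GRCh38, minus strand) went from near absence to a high level. Its counts in the 4 untreated libraries were 1, 1, 2 and 2, and in the 4 DOX-treated libraries 12935, 9860, 14606 and 13482. These correspond to 0.0204, 0.0194, 0.0407 and 0.0448 CPM without DOX, all below the 3 counts taken as the floor, and to 255, 246, 286 and 297 CPM with DOX. Every DOX-treated library was thus far above every untreated one.

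The mean of COMP was 0.0313 ± 0.0133 CPM (SD, n = 4) in untreated and 271 ± 24.3 CPM in DOX-treated cells. Measured against the mean floor of 3 counts per library, COMP was at least 4376-fold higher with DOX. By mean CPM it ranked 15158th of the 15222 tested genes without DOX and 492nd with DOX. All COMP counts were whole numbers, whereas RSEM gives fractions where it divides reads between genes. In bulk libraries such as these, a higher level per cell and a larger share of cells with the transcript cannot be told apart.

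**Figure D1:**
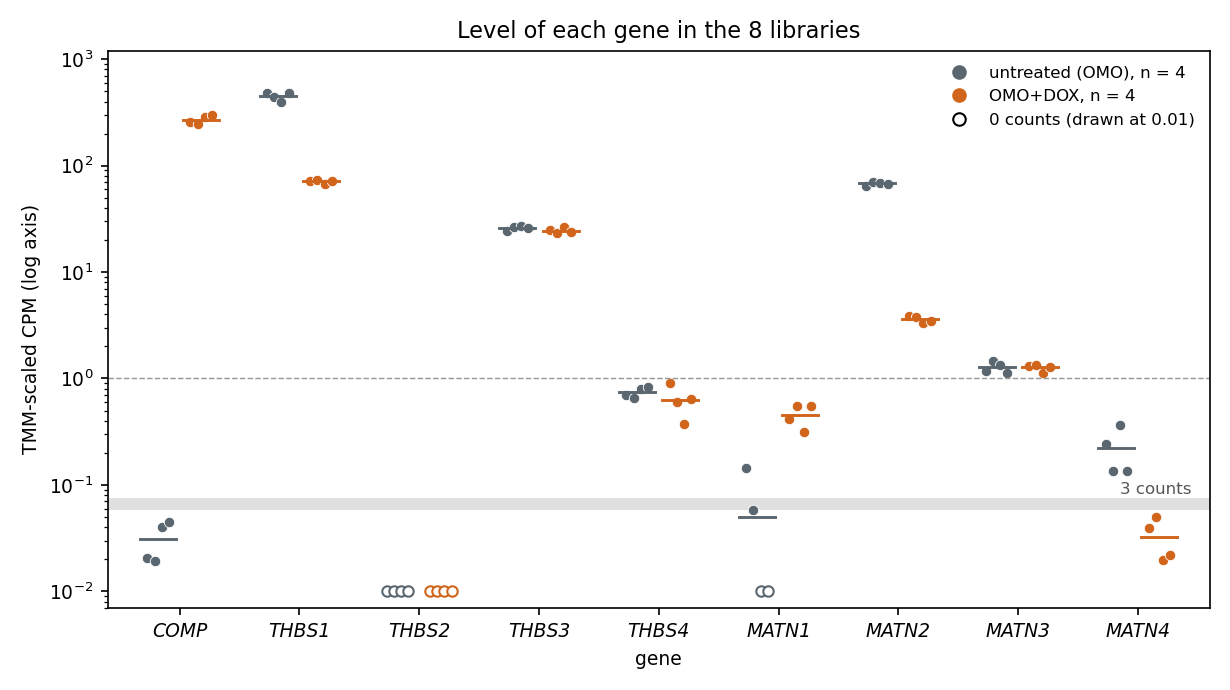
TMM-scaled CPM of each of the 9 genes on a log axis, 1 point per library with a line at the group mean (grey, untreated; orange, DOX-treated; 4 libraries each), open points for 0 counts, a dashed line at 1 CPM and a grey band at 3 counts. COMP sits under the band without DOX and between 246 and 297 CPM with DOX, whereas THBS1 and MATN2 are lower in all DOX-treated libraries.

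THBS3 (ENSG00000169231.13, chr1:155195588-155209051, minus strand), another pentameric thrombospondin, was expressed at a moderate level in both groups. It measured 24.4, 26.5, 27.1 and 25.8 CPM in untreated libraries and 25.0, 23.1, 26.5 and 23.6 CPM in DOX-treated libraries. The groups overlapped, with means of 25.9 ± 1.16 and 24.5 ± 1.56 CPM. Its log2FC was -0.08 with a standard error (SE) of 0.06 and a 95% interval from -0.21 to 0.05. The sign of this small value turned with library size as the only scaling, where it was 0.05.

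THBS4 (ENSG00000113296.14, chr5:79991311-80083287, plus strand), a pentameric thrombospondin of tendon, muscle and nervous tissue, was detected at a low level. Its values were 0.694, 0.658, 0.793 and 0.829 CPM without DOX and 0.907, 0.598, 0.371 and 0.638 CPM with DOX, from 19 to 46 counts per library. The highest and the lowest library were both DOX-treated, and the groups overlapped (means 0.743 ± 0.0808 and 0.629 ± 0.220 CPM). In a fit without the CPM minimum its log2FC was -0.27 (SE 0.24).

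Among the trimeric thrombospondins, THBS1 (ENSG00000137801.11, chr15:39581079-39599466, plus strand), an inhibitor of angiogenesis and activator of latent TGF-beta, was abundant in untreated cells and lower with DOX. It measured 478, 446, 399 and 484 CPM in untreated and 71.1, 73.8, 67.6 and 72.5 CPM in DOX-treated libraries. The groups were well apart, and the DOX-treated libraries lay within a narrow range. Means were 452 ± 38.8 and 71.2 ± 2.65 CPM, a 6.34-fold lower level with DOX (log2FC -2.66, SE 0.07, 95% interval -2.81 to -2.52). THBS1 ranked 309th by mean CPM without DOX and 3036th with DOX. Its expected counts were not whole in any of the 8 libraries, that is, some reads were divided between THBS1 and other genes.

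THBS2 (ENSG00000186340.15, chr6:169215780-169254044, minus strand), the other trimeric member and likewise an inhibitor of angiogenesis, had 0 counts in all 8 libraries. A count of 0 allows at most 3 counts per library, which is from 0.0581 to 0.0748 CPM depending on depth.

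Among the matrilins, MATN2 (ENSG00000132561.14, chr8:97868840-98036716, plus strand), the broadly expressed member, was the most abundant in untreated cells. It measured 65.0, 70.8, 69.2 and 67.7 CPM without DOX and 3.82, 3.79, 3.30 and 3.48 CPM with DOX. The lowest untreated library was more than 10-fold above the highest DOX-treated one. Means were 68.2 ± 2.49 and 3.60 ± 0.251 CPM, an 18.9-fold lower level (log2FC -4.24, SE 0.06, 95% interval -4.38 to -4.11). This log2FC was the 23rd lowest of the 15222 genes tested.

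MATN3 (ENSG00000132031.13, chr2:19992111-20012694, minus strand), a cartilage matrilin, was low and nearly level between groups. Its values were 1.16, 1.45, 1.34 and 1.12 CPM without DOX and 1.32, 1.35, 1.13 and 1.28 CPM with DOX. Both means were 1.27 CPM (SD 0.155 and 0.0947), and the log2FC was -0.01 (SE 0.13) with a 95% interval from -0.29 to 0.28, which bounds the difference at this depth.

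MATN1 (ENSG00000162510.6, chr1:30711277-30723587, minus strand), the first described cartilage matrilin, was close to the floor without DOX. Its expected counts were 7.34, 3.21, 0 and 0 in untreated and 21.16, 21.78, 16.46 and 24.84 in DOX-treated libraries, or 0.143, 0.0581, 0 and 0 CPM against 0.414, 0.548, 0.313 and 0.550 CPM. Every DOX-treated library exceeded every untreated one, although all stayed under 1 CPM. Means were 0.0502 ± 0.0675 and 0.456 ± 0.115 CPM, and no fold is given since the untreated mean lay below the floor and rested mostly on replicate 1. In 6 libraries the MATN1 count was not whole, that is, reads were shared with another gene. In each of these, the count added to a whole number with that of the antisense gene MATN1-AS1. Reads were thus divided between MATN1 and MATN1-AS1, and the rise of MATN1 is not a separate measurement.

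MATN4 (ENSG00000124159.15, chr20:45293445-45308529, minus strand), a matrilin of brain and other tissues, went the other way at a similarly low level. Its counts were 12, 7, 18 and 6 without DOX and 2, 2, 1 and 1 with DOX. The groups did not overlap, and all DOX-treated libraries were at the floor. From 0.220 ± 0.110 CPM in untreated cells, MATN4 was at least 3.41-fold lower with DOX against the mean floor. The fit without the CPM minimum counted MATN1 and MATN4 as changed under the stricter thresholds, which makes 5 members in place of 3. In that fit 2097 of 36881 genes tested passed these thresholds.

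Levels were compared between genes as CPM per kb of merged exon length. In untreated cells THBS1 led at 49.3 ± 4.24 CPM per kb, followed by MATN2 at 9.83 ± 0.359, THBS3 at 5.61 ± 0.250 and MATN3 at 0.407 ± 0.0496. These neighbours in the order did not overlap in any library. THBS4 (0.161) came next, and its libraries lay below those of MATN3. The libraries of MATN4 (0.0892 CPM per kb) overlapped with those of THBS4, and those of MATN1 (0.0109) with those of COMP (0.0101).

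In DOX-treated cells COMP led at 87.3 ± 7.84 CPM per kb, followed by THBS1 at 7.78 ± 0.290 and THBS3 at 5.31 ± 0.338, without overlap. MATN2 (0.519 ± 0.0361) and MATN3 (0.407 ± 0.0304) also differed in all libraries. THBS4 (0.137) and MATN1 (0.0991) overlapped, and MATN4 (0.0133) was below them.

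The makeup of the thrombospondins thus turned over, whereas MATN2 stayed the largest matrilin in both groups. Of the summed thrombospondin level per kb, THBS1 made up 89.4 ± 1.21% in untreated cells and 7.78 ± 0.784% with DOX, whereas COMP went from 0.0185% to 86.8 ± 1.07%. THBS3 contributed 10.2 ± 1.18% and 5.29 ± 0.424%, and THBS4 0.294% and 0.138%. The summed level went from 55.1 ± 4.04 to 101 ± 7.79 CPM per kb. In CPM not divided by length the direction of this sum was the opposite, from 478 ± 37.9 to 367 ± 23.6 CPM, since the merged exons of THBS1 (9158 bp) are longer than those of COMP (3101 bp). On that scale COMP made up 73.7% and THBS1 19.5% with DOX, and THBS1 94.4% without it.

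The summed matrilin level was 10.3 ± 0.391 CPM per kb in untreated and 1.04 ± 0.0876 CPM per kb in DOX-treated cells. MATN2 held 95.1 ± 0.598% of it without DOX and 50.1 ± 1.77% with DOX. The share of MATN3 was 3.93 ± 0.349% and 39.2 ± 0.449%, although its own level was close to equal in both groups. MATN1 held 0.108% and 9.47 ± 1.92%, and MATN4 0.864% and 1.25%. In CPM not divided by length, MATN2 made up 97.8% without and 67.2% with DOX, and MATN3 1.82% and 23.7%.

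**Figure D2:**
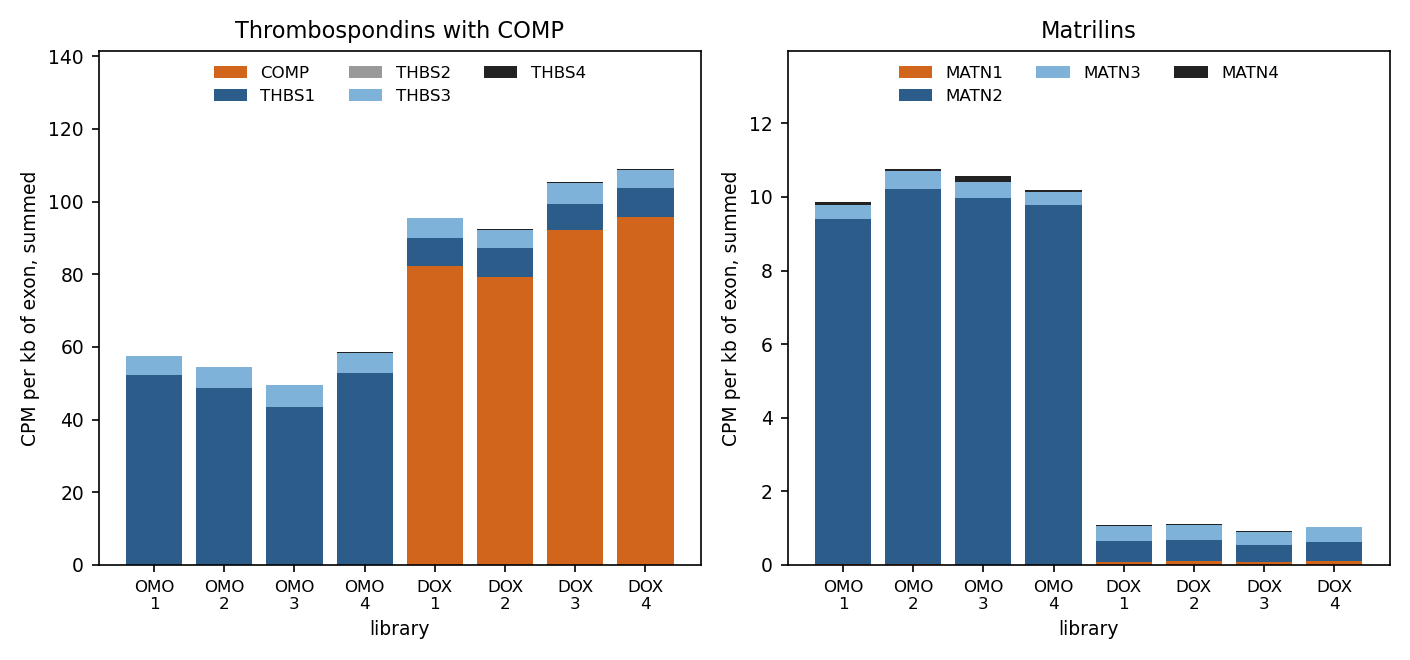
Stacked level in CPM per kb of exon of the thrombospondins with COMP (left) and the matrilins (right) in each of the 4 untreated (OMO) and 4 DOX-treated (DOX) libraries, on separate axes that start at 0. THBS1 fills most of the left bars without DOX and COMP with DOX, and the matrilin bars are near 10 without and near 1 CPM per kb with DOX.

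Genes that overlap a member or start within 10 kb of it were examined next, since they can share reads or a promoter region with it. The kit used marks strand, but whether the counting used strand is not given in the sources used here. Counts of MATN1 and its antisense partner, and of other pairs given below, show reads divided between the strands. Reads of a gene and its antisense partner were thus not fully separated for these pairs and may not be for others. No gene met this rule for COMP. CRTC1, a CREB coactivator that ends 440 bp from the end of COMP on the opposite strand, was looked up after its values were seen. It measured 35.5 ± 1.46 CPM without and 53.6 ± 3.78 CPM with DOX (log2FC 0.59, SE 0.06, adjusted p = 1.91e-06). This and all other adjusted p-values come from the quasi-likelihood fit of edgeR over the whole table, with the Benjamini-Hochberg method.

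Inside THBS1, the antisense gene THBS1-AS1 fell together with it, from 2.99 ± 0.429 to 0.443 ± 0.0938 CPM (log2FC -2.76, SE 0.17, adjusted p = 3.33e-08). Of its 526 exonic bases, 411 are also exonic in THBS1, and its counts were not whole in any library. The counts of THBS1 and THBS1-AS1 added to a whole number in untreated replicate 3 (19626.99 and 120.01) and DOX-treated replicate 1 (3603.56 and 19.44). Reads were divided between them there, so the fall of THBS1-AS1 and its adjusted p-value are not a separate measurement. THBS1-IT1, an intronic transcript on the strand of THBS1 with no exonic base in common, had counts of 57, 47, 29 and 47 without and 5, 1, 2 and 7 with DOX. The groups did not overlap, and this gene stayed below the CPM minimum. FSIP1, a sperm tail gene whose end crosses THBS1 on the other strand, was 1.16 CPM without and 0.876 CPM with DOX (log2FC -0.42, SE 0.15, adjusted p = 0.022), and its groups overlapped. This call was lost without untreated replicate 4 and without DOX-treated replicate 1 or 3, where the log2FC was -0.37, -0.36 and -0.36. FSIP1 shares 448 exonic bases with THBS1, and its counts were not whole in 7 libraries. The counts of THBS1, THBS1-AS1 and FSIP1 added to a whole number in untreated replicate 2 (23046.33, 150.2 and 61.47) and DOX-treated replicate 2 (2960.54, 23.44 and 42.02). Reads were divided among these genes there, so the fall of FSIP1 and its adjusted p-value are not a separate measurement.

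Beside THBS3, the antisense THBS3-AS1 rose from 1.76 ± 0.119 to 3.35 ± 0.362 CPM (log2FC 0.93, SE 0.11, adjusted p = 1.08e-05), beside a log2FC of -0.08 for THBS3 itself. THBS3-AS1 shares 1027 of its 2466 exonic bases with THBS3, and its counts were not whole in any of the 8 libraries. In DOX-treated replicate 1 the counts of THBS3 and THBS3-AS1 (1266.63 and 156.37) added to a whole number. Reads were divided between them there, so the rise of THBS3-AS1 and its adjusted p-value are not a separate measurement. MTX1, a mitochondrial import gene on the other strand, starts inside THBS3, 352 bp from its start. It shares 146 exonic bases with THBS3, and its counts were not whole in 7 libraries. MTX1 measured 39.3 and 41.5 CPM (log2FC 0.08, SE 0.07, 95% interval -0.07 to 0.22, adjusted p = 0.303). It passed FDR < 0.05 without untreated replicate 3, with a log2FC of 0.13. The mucin gene MUC1 rose from 0.596 to 1.13 CPM (log2FC 0.92, SE 0.14, adjusted p = 7.61e-05).

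MTX3, a relative of MTX1 that starts 46 bp from THBS4 in the opposite direction, rose from 64.0 ± 6.13 to 97.9 ± 7.73 CPM (log2FC 0.61, SE 0.08, adjusted p = 1.69e-05). THBS4 in the same libraries stayed under 1 CPM. MATN1-AS1, an antisense RNA that overlaps the start of MATN1 and shares 836 exonic bases with it, rose from 0.315 ± 0.166 to 1.68 ± 0.239 CPM (log2FC 2.42, SE 0.27, adjusted p = 6.91e-06). The 2 genes were both higher in every DOX-treated library, and both had counts that were not whole in 6 libraries. In these libraries the 2 counts, such as 24.84 for MATN1 and 85.16 for MATN1-AS1 in DOX-treated replicate 4, added to a whole number. Reads were divided between the 2 genes, so their rises are not separate measurements.

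Around MATN2, the ribosomal protein gene RPL30 overlaps its end on the other strand without a shared exonic base. RPL30 fell from 2109 ± 208 to 1684 ± 102 CPM (log2FC -0.33, SE 0.07, adjusted p = 0.00119), and RPL30-AS1 rose from 22.2 to 27.6 CPM (log2FC 0.32, SE 0.06, adjusted p = 0.000572). The counts of both were not whole in any of the 8 libraries. They added to a whole number in, for example, untreated replicate 1 (96138.97 and 1045.03) and DOX-treated replicate 2 (64607.38 and 1128.62). Reads were divided between these genes, so the rise of RPL30-AS1 and its adjusted p-value are not a separate measurement. Beside MATN3, the ciliary transport gene WDR35 fell from 44.6 to 34.7 CPM (log2FC -0.36, SE 0.08, adjusted p = 0.00171) with groups that overlapped. WDR35-DT (0.802 and 0.655 CPM) and the pseudogenes RBX1P2 (0.271 and 0.262 CPM, in THBS4) and RPS23P1 (0.0769 and 0.0112 CPM, near MATN2) were below the CPM minimum. ENSG00000236263 and ENSG00000273088, near THBS3, averaged under 0.1 CPM in both groups. The other 7 neighbours of the members, THBS2-AS1, THBS4-AS1, RBPJL, MIR92B, TRMT112P2, SNORA72 and SUMO2P18, had at most 3 counts in every library.

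**Figure D3:**
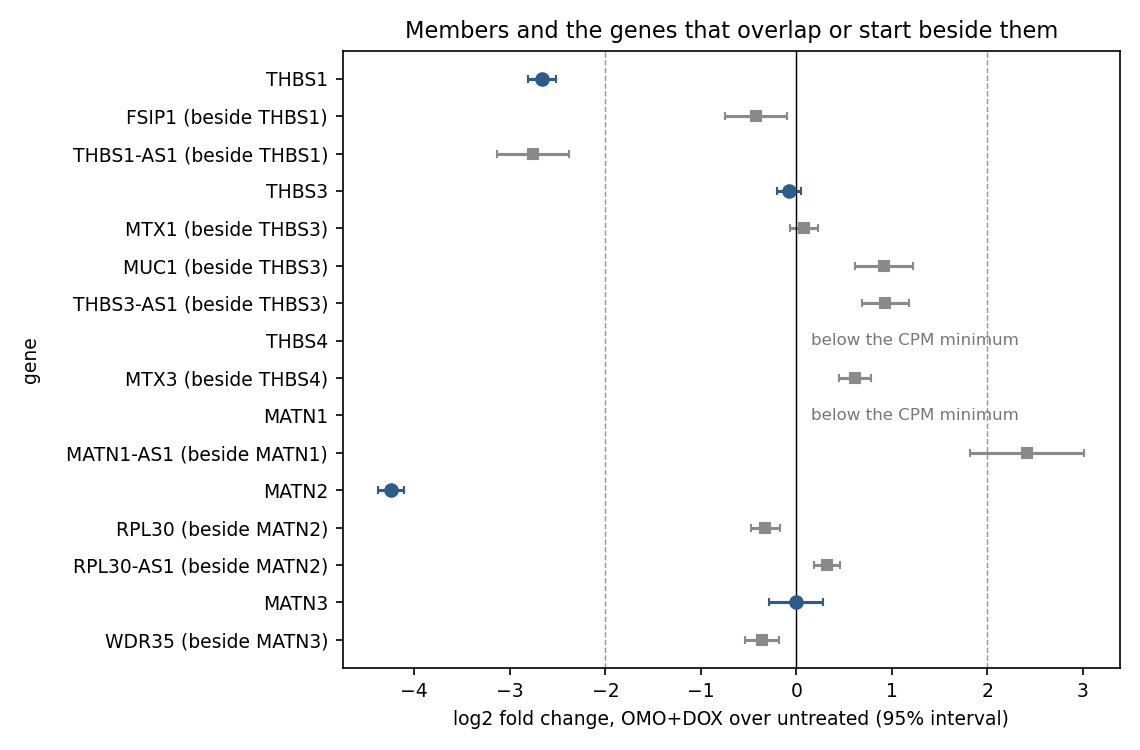
Log2 fold change of DOX-treated over untreated cells with its 95% interval for the tested members (blue circles) and the tested genes that overlap them or start within 10 kb (grey squares), with dashed lines at -2 and 2. THBS1 and THBS1-AS1 lie near -2.7, MATN2 at -4.24 stands apart from its neighbours near 0, and COMP is not drawn because its untreated libraries are at the floor.

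Receptors, partners and related genes were taken from 8 lists of 131 genes, of which 80 were tested. Of these, 15 rose and 6 fell under the stricter thresholds, and 40 rose and 26 fell at FDR < 0.05, with a median log2FC of 0.18 beside 0.01 for all genes. The counts of each list are to be read beside the 38.5% of all genes that rose and the 38.1% that fell at FDR < 0.05. Under the stricter thresholds these shares were 4.38% and 2.75%. The lists were chosen with earlier results of these data known, so the counts are a description. Among the receptors of thrombospondins, 13 of 16 were tested, 8 rose and 3 fell at FDR < 0.05, and the median log2FC was 0.35. ITGA3, an integrin chain that pairs with ITGB1 in a receptor for THBS1, rose from 12.3 ± 0.768 to 104 ± 4.03 CPM (log2FC 3.09, SE 0.06, adjusted p = 1.41e-12). ITGB3, the beta chain of the alpha-v-beta-3 receptor, rose from 0.491 to 2.21 CPM (log2FC 2.16, SE 0.16, adjusted p = 1.79e-07). These were the 2 receptors past the stricter thresholds. CD36, the receptor for the type 1 repeats of THBS1, averaged 0.0148 CPM without and 0.102 CPM with DOX.

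Of the matrix partners of COMP and the matrilins, 10 of 16 were tested, 6 rose and 1 fell at FDR < 0.05, and the median log2FC was 1.18. With library size as the only scaling, 9 rose and 1 fell. HSPG2 (perlecan), the large heparan sulfate proteoglycan of basement membranes, rose from 129.6 ± 14.3 to 952 ± 73.7 CPM (log2FC 2.88, SE 0.09, adjusted p = 7.39e-11). The collagen VI chain COL6A1 rose from 0.379 to 6.12 CPM (log2FC 4.00, SE 0.14, adjusted p = 2.44e-10) and the collagen IX chain COL9A1 from 1.12 to 6.13 CPM (log2FC 2.45, SE 0.14, adjusted p = 1.36e-08). COL2A1, the main cartilage collagen and a ligand of COMP, fell from 218 ± 19.7 to 33.3 ± 2.19 CPM (log2FC -2.71, SE 0.08, adjusted p = 3.61e-11). Aggrecan (ACAN), the main cartilage proteoglycan, averaged 0.0303 and 0.103 CPM.

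Cartilage genes were mostly below the CPM minimum: 6 of 19 were tested and 7 had at most 3 counts in every library. At FDR < 0.05, 4 rose and 2 fell, with a median log2FC of 0.60. SOX9, the master regulator of chondrocyte fate, fell from 90.6 ± 7.29 to 12.2 ± 0.831 CPM (log2FC -2.90, SE 0.07, adjusted p = 1.52e-11) in the libraries in which COMP was higher. CILP, a matrix protein of cartilage, fell from 1.70 to 0.257 CPM (log2FC -2.67, SE 0.27, adjusted p = 3.07e-06).

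Other proteins with thrombospondin type 1 repeats moved in both directions: of 21 tested among 35, 10 rose and 9 fell at FDR < 0.05, with 6 and 3 past the stricter thresholds and a median log2FC of 0.18. CCN3, a matricellular protein of the CCN family, rose from 0.487 ± 0.108 to 33.8 ± 0.694 CPM (log2FC 6.12, SE 0.10, adjusted p = 5.06e-13). RSPO1, a secreted enhancer of WNT signalling, rose from 7.76 ± 0.994 to 192 ± 6.91 CPM (log2FC 4.63, SE 0.09, adjusted p = 1.32e-12). THSD7A, a membrane protein, was at the floor without DOX and at 1.46 ± 0.354 CPM with it, at least 23.6-fold higher (adjusted p = 5.83e-08). The semaphorin SEMA5B fell from 7.65 ± 0.632 to 0.264 ± 0.0491 CPM (log2FC -4.83, SE 0.14, adjusted p = 4.42e-11).

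For proteins with von Willebrand A domains, the module of the matrilins, 6 of 12 were tested, 4 rose and 1 fell at FDR < 0.05 and none passed the stricter thresholds, with a median log2FC of 0.37. The anthrax toxin receptors ANTXR1 (from 129 to 181 CPM, log2FC 0.49, SE 0.06, adjusted p = 1.86e-05) and ANTXR2 (from 23.0 to 29.6 CPM, log2FC 0.37, SE 0.05, adjusted p = 3.62e-05) rose.

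All 5 tested proteases of 13 known to cleave COMP, thrombospondins, matrilins or their partners rose at FDR < 0.05, as did 38.5% of all genes tested, with a median log2FC of 2.09. ADAMTS7, a metalloprotease that degrades COMP, rose from 2.82 ± 0.159 to 14.8 ± 1.38 CPM (log2FC 2.39, SE 0.09, adjusted p = 3.85e-10). The aggrecanase ADAMTS4 (from 3.05 to 13.9 CPM, log2FC 2.19, SE 0.11, adjusted p = 3.51e-09) and ADAMTS1 (from 2.85 to 12.1 CPM, log2FC 2.09, SE 0.09, adjusted p = 1.24e-09) were alike in size.

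All 8 chaperones and folding enzymes of the endoplasmic reticulum that act on secreted matrix proteins such as COMP fell at FDR < 0.05, with a median log2FC of -0.51, and all 8 also did so with library size as the only scaling (median -0.39). None passed the stricter thresholds. The lectin chaperone CANX fell from 959 ± 70.3 to 669 ± 41.3 CPM (log2FC -0.52, SE 0.06, adjusted p = 1.23e-05) and HSP90B1 from 791 ± 24.5 to 574 ± 22.3 CPM (log2FC -0.46, SE 0.04, adjusted p = 1.77e-06).

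Of the reported regulators of THBS1, 12 of 13 were tested, 3 rose and 3 fell at FDR < 0.05, and the median log2FC was -0.01. With library size as the only scaling, 5 rose and 3 fell and the median was 0.11. The immediate early factor EGR1 rose from 381 ± 41.3 to 1567 ± 240 CPM (log2FC 2.04, SE 0.11, adjusted p = 1.17e-08). EGR1 no longer exceeded a log2FC of 2 without untreated replicate 1 (1.99), untreated replicate 2 (1.99) or DOX-treated replicate 3 (1.96). MIR17HG, the host gene of the miR-17-92 cluster known to target THBS1, was singled out after its values were seen. It measured 23.2 ± 1.82 and 26.0 ± 2.05 CPM (log2FC 0.16, SE 0.07, adjusted p = 0.0528).

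**Figure D4:**
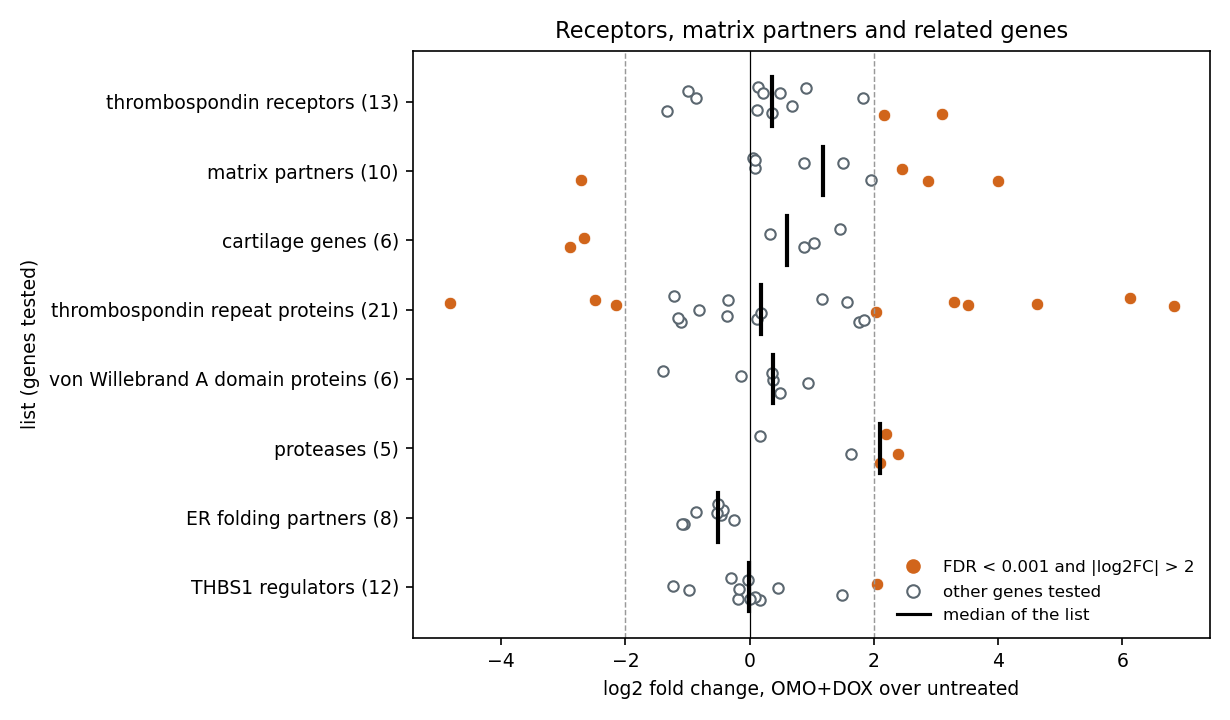
Log2 fold change of DOX-treated over untreated cells for the tested genes of the 8 lists, 1 point per gene, filled orange where FDR was below 0.001 and the absolute log2FC above 2, with a black bar at the median of each list and dashed lines at -2 and 2. The medians range from -0.51 for folding partners to 2.09 for proteases, and the list of other repeat proteins spreads from -4.83 to 6.82.

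The genes with the profile most like that of COMP across the 8 libraries were named by the root mean square difference between log2(CPM + 1) values centred on their own mean. They were NPTX2, a neuronal pentraxin (0.0884), F5, coagulation factor V (0.0974), PYY, a gut peptide hormone (0.210), GRIA3, an AMPA receptor subunit (0.347), and PDE9A, a cyclic GMP phosphodiesterase (0.432). NPTX2 went from 0.264 to 305 CPM and F5 from 0.109 to 300.3 CPM. PYY reached 212, GRIA3 164 and PDE9A 180.2 CPM with DOX, each from under 0.3 CPM without it.

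For THBS1 the closest profiles were those of CYP1B1, a cytochrome P450 (0.0614), NPR3, a natriuretic peptide receptor (0.0748), ENSG00000287064 (0.0788), RASGEF1B (0.0814) and SEMA5B (0.0884). NPR3 fell from 609.5 to 103 CPM beside 452 to 71.2 CPM for THBS1. For MATN2 they included PCARE, a photoreceptor gene (0.0756), IGFBP5, an insulin-like growth factor binding protein (0.0928), PALMD (0.106) and CDHR1, a photoreceptor cadherin (0.132). PCARE went from 77.4 to 4.13 CPM and CDHR1 from 1176 to 83.1 CPM. These lists rest on 8 libraries in 2 groups and hold genes with a like difference between groups in log2(CPM + 1). The added 1 makes the difference smaller for genes at low CPM. By log2FC, CYP1B1 (-3.53), ENSG00000287064 (-4.14) and SEMA5B (-4.83) fell more than THBS1 (-2.66), whereas NPR3 (-2.57) and RASGEF1B (-2.75) were near it.

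Markers of cell types were followed beside these values. All 8 Group 3 medulloblastoma markers were detected, with a summed level from 3259 to 3330 CPM without and from 1778 to 1919 CPM with DOX, MYC included. Without MYC, the other 7 summed to between 2211 and 2424 CPM without and between 721 and 740.2 CPM with DOX. CRX, NRL, IMPG2 and NPR3 fell past the stricter thresholds, OTX2 measured 1049 and 509.7 CPM, and EYS 14.3 and 16.7 CPM. Of 6 Group 4 markers, LMX1A, BARHL1 and KCNA1 were at the floor, and the sum was from 6.06 to 7.77 CPM without and from 23.2 to 26.7 CPM with DOX. This sum came mostly from RBM24 (5.79 and 14.2 CPM) and UNC5D (0.838 and 9.69 CPM), and UNC5D rose past the stricter thresholds. MYC measured 939 and 1123 CPM, and these counts may include reads of the transgene, which derives from MYC.

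Chondrocyte markers summed to between 297 and 329 CPM without and between 55.0 and 59.0 CPM with DOX, mostly from SOX9 and COL2A1, with HAPLN1 and CNMD of the 8 at the floor and ACAN near it. COL9A1, COL11A2 (2.39 and 4.38 CPM) and CHAD (0.443 and 1.02 CPM) had the higher mean with DOX. The 8 fibroblast markers summed to between 36.4 and 38.4 CPM without and between 57.0 and 70.7 CPM with DOX, with PDGFRB at 13.5 and 40.4 CPM, POSTN at the floor in both groups, COL1A2 and DCN at the floor with DOX and COL3A1 at the floor without it (0.335 CPM with DOX). The 5 astrocyte markers summed to between 47.9 and 51.9 CPM without and between 15.8 and 18.3 CPM with DOX, nearly all from SLC1A3. For endothelial cells the ranges were 3.42 to 4.10 and 2.77 to 3.75 CPM, with PECAM1 and TEK of 5 markers at the floor. Of the others, VWF measured 3.26 and 1.24 CPM, CLDN5 0.449 and 0.114 CPM, and CDH5 0 without and 1.85 CPM with DOX. For myeloid cells the sums were 0.793 to 0.854 and 1.23 to 1.50 CPM over 5 markers. The part of these shifts in the values of COMP, THBS1 and MATN2 was not tested.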

How the data were processed

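PolyA+ RNA of 8 samples was sequenced as paired reads from a stranded kit. Upstream, the authors used Trim Galore for trimming, STAR for alignment to GRCh38 with GENCODE 32, and deposited RSEM expected counts per gene, which are not normalized and in which reads matching several genes are divided between them. Samples were grouped by their titles and treatment labels. Identifiers were matched to symbols for 60649 of 60668 genes, and coordinates and merged exon lengths come from GENCODE 29, also on GRCh38. Promoter windows come from RefSeq. The study used edgeR's generalized linear model and names no covariate, and none was used here.

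Expected counts were rounded to whole numbers and fitted with edgeR 4.0.16 in R 4.3.3 (TMM scaling, quasi-likelihood test, Benjamini-Hochberg adjustment over the 15222 genes that exceeded 1 CPM in 4 or more libraries). SE is the absolute log2FC over the square root of F. CPM are TMM-scaled, and 3 counts per library, from 0.0581 to 0.0748 CPM, were taken as the floor, which covers counting error only. The fits were tested on simulated data. Alternatives were DESeq2 1.42.0 (size factors and Wald test), library size only, other minimums, a replicate block, each library left out, and CPM in place of CPM per kb.

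The members and gene lists were chosen with earlier results of these data known. Named from each list were at most 4 genes past the stricter thresholds with the largest absolute log2FC, or the 2 with the highest mean CPM where none passed, all genes that overlap a member or start within 10 kb, and the 5 genes closest in profile to COMP, THBS1 and MATN2, of which 1 is not reported here. CD36, ACAN, CRTC1, MIR17HG and the cell type markers named with values were added beside that rule. No amino acid sequence was used here.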

Additional observations from a re-analysis of the deposited data

Results flagged for a closer look

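No family member had a library that stood apart from the others of its group. Among the 83 groups of 4 libraries examined for named genes, 5 had 1 value farther from the rest than Dixon's 95% limit, where chance gives about 4.15. CCN3 was 34.8 CPM in DOX-treated replicate 3 and from 33.3 to 33.5 CPM in the other DOX-treated libraries. ADAMTS7 was 12.7 CPM in DOX-treated replicate 2 against 15.4 to 15.6 CPM. HSP90B1 was 828 CPM in untreated replicate 3 against 776 to 783 CPM. The low-count neighbour ENSG00000236263 was 0.0881 CPM in DOX-treated replicate 4 and 0 in the others, and RBX1P2 was 0.447 CPM in untreated replicate 3 against 0.202 to 0.232 CPM.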

How the results depend on the processing

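THBS1 and MATN2 kept their direction and passed the stricter thresholds under all 14 alternatives. A minimum of 1 CPM in at least 5 libraries removed COMP and left 2 members called, and no stability is read from the calls of COMP, whose rise chose the set. Over the alternatives log2FC ranged from -2.72 to -2.54 for THBS1 and from -4.28 to -4.12 for MATN2, and THBS3 (-0.12 to 0.05) and MATN3 (-0.07 to 0.12) were called in none. Without the minimum, 2097 of 36881 genes tested passed the stricter thresholds, in place of 1084 of 15222 (1070 of them shared). In that fit 5 members passed under both thresholds, since genes with few counts then entered the test. With the minimum required in at least 5 libraries, 562 of 14301 genes tested passed. Of the listed genes, 13 passed in place of 21, since genes expressed in 1 group only were removed. With library size as the only scaling, 7157 genes rose and 4715 fell at FDR < 0.05 in place of 5868 and 5793. With each library left out in turn, 1072 to 1091 genes, 3 members and 19 to 21 listed genes passed the stricter thresholds, and 65 to 68 listed genes passed FDR < 0.05. At the stricter thresholds, the listed genes that changed were EGR1 and, without untreated replicate 1, CCN1 (log2FC 1.96 in place of 2.04). Of 35 single genes followed, 3 changed a call at either threshold, EGR1, FSIP1 and MTX1. The sign turned in 2, THBS3 and MATN3, which were called in no setting. FSIP1 also lost its call with library size only, with the DESeq2 Wald test and without the minimum, and MTX1 gained one with library size only (log2FC 0.20).

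With the replicate number as a replicate block, 1085 genes (1082 shared), 3 members and 21 listed genes passed the stricter thresholds and 68 listed genes FDR < 0.05. Deviations of same-numbered libraries from their group means correlated at 0.157, 0.144, 0.241 and -0.176, so that the numbers were not taken to pair the libraries. Depth limits statements on THBS2, THBS4, MATN1 and MATN4, which had under 50 counts in every library.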
